A study of Mus musculus with 18 samples.

Results

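Control kidneys at 14 days after ischemia/reperfusion (I/R) injury were compared with control kidneys at 2 days, which sets the acute phase of injury against the late phase in the absence of the tubular IKKβ deletion. Members were chosen by group alone: the 3 control libraries of each time, 6 of the 18 libraries of the series, with all 29307 genes of the deposited table. Control mice carried floxed IKKβ alleles without the Pax8-rtTA-LC1 Cre transgenes (IKKβ fl/fl; the labels call them WT), received 0.2 mg/mL doxycycline in drinking water for 2 weeks from 6 weeks of age like the deletion strain, had 1 week of wash out and then 30 min of clamping of the left renal pedicle. The strain termed IKKβ∆Tub carried in addition Pax8-driven, doxycycline-dependent Cre, which is active in epithelium along the tubule, and its 6 libraries after injury are described here only where a change was compared between strains. Control baseline libraries without injury came from another batch and are described as a reference level. The summed level of 4 Y-linked genes was at most 0.00195 in them and up to 2.55 in the control libraries after injury. Batch and sex therefore both enter the comparisons with baseline. RNA was from whole kidney tissue, as poly(A)-selected, stranded libraries, and a level below is the value that was deposited, in which the reads of a gene are scaled to the 90th percentile of that library. Changes are log2 fold changes of level + 0.005, 14 days minus 2 days, from limma over all 18 libraries, so that the IKKβ∆Tub and baseline libraries also entered the filter on low levels and the spread behind each p-value, and a gene is said to have risen or fallen where the p adjusted by Benjamini and Hochberg over all tested genes was below 0.05. The labels give each library as a pool of 2 numbered mice, with the same numbers at both times. The key deposited with the table gives different animal series at 2 and 14 days, so same-numbered libraries hold different animals. The p-values measure the spread between these samples.

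After I/R injury, proximal tubule cells that survive lose polarity and transport proteins, re-enter the cell cycle and replace lost neighbours. Repair that stays incomplete is known for persistent interstitial inflammation, with macrophages and lymphocytes, deposition and remodelling of matrix, and tubule cells that keep an injured state with low expression of transporters and mitochondrial genes. Injured tubule cells themselves can make complement, chemokines and MHC class II molecules.

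Several properties of the 6 libraries bear on the comparison. They held 13053850 to 21703468 reads and belong to 1 library set. The key deposited with the table gives the 2-day libraries as 2 animal series (replicates 1 and 2 one series, replicate 3 another) and the 14-day libraries as one more, so time and animal series cannot be told apart, and it lists 1 or 2 mice per library where the labels list 2. Ikbkb, the gene floxed in both strains (chromosome 8 of GRCm38 from 22659212 to 22706589), had levels of 0.829, 0.855 and 1.29 at 2 days and 1.21, 1.11 and 1.13 at 14 days (log2 fold change 0.24, SE 0.18, adjusted p = 0.327). Vmn1r32, a vomeronasal receptor gene, was at 0.0160 to 0.0177 and 0.0417 to 0.0592 in the IKKβ∆Tub libraries of 2 and 14 days. In the control libraries it was at 0.0156, 0.0234 and 0.00177 at 2 days (21, 31 and 3 reads) and 0, 0 and 0 at 14 days. By this gene 2-day replicates 1 and 2 go against their label, and counts are also given without them. The key gives them the same animal series as the IKKβ∆Tub libraries of 2 days, so series and genotype cannot be told apart for this gene at 2 days. Ikbkb was lower in these replicates than in the other control libraries, and its log2 fold change was -0.16 without them. Sex differed between libraries: the Y-linked gene Ddx3y had levels of 0.517, 0.000756 and 0.000589 at 2 days and 0.599, 0.976 and 0 at 14 days, and Xist, expressed from the inactive X chromosome, had 0.00149, 5.60 and 7.44 at 2 days and 0.00278, 0.00160 and 8.10 at 14 days. Liver and pancreas transcripts were present in 14-day replicates 1 and 3 (values below), and counts are also given without these. The part of these properties in the changes described here was not tested beyond these counts. Because whole tissue was sequenced, fewer cells of a type and less RNA per cell cannot be told apart.

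Between 2 and 14 days, 2705 genes rose and 2899 fell of 16342 tested, that is 16.6% higher and 17.7% lower, and these 2 percentages are the background for every list below. The median log2 change of all tested genes was 0.02. Libraries of the 2 times did not overlap in 51.2% of tested genes, called or not, with 4311 higher and 4055 lower at 14 days. This share is the background wherever a gene is said to separate the times. In a principal component analysis of the 6 libraries the leading component held 68.1% of the variance and separated the times, with scores of -56.3 to -53.9 at 2 days and 52.2 to 57.4 at 14 days. The root mean square distance between libraries in log2 level was 0.355 to 0.497 within 2 days, 0.511 to 0.619 within 14 days and 0.931 to 1.0 between them. The change was over 2-fold for 1255 of the genes that rose and 1293 of those that fell. Without 2-day replicates 1 and 2, 713 genes rose (4.36%) and 1144 fell (7%). Without 14-day replicates 1 and 3, 1251 rose (7.66%) and 1833 fell (11.2%). Each of these fits leaves 1 library at a time, which is assumed to vary like the other groups, and their percentages are the background for list counts without those libraries. Of the genes called in these smaller fits, 1831 of 1857 and 2965 of 3084 were among the 5604 calls above, all in the same direction. Where a list below is given with no call in a direction by limma, an unadjusted p below 0.05, edgeR and DESeq2 gave 0 in that direction too, except 1 collagen gene higher at an unadjusted p and the single adipocyte gene named below.

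**Figure D1:**
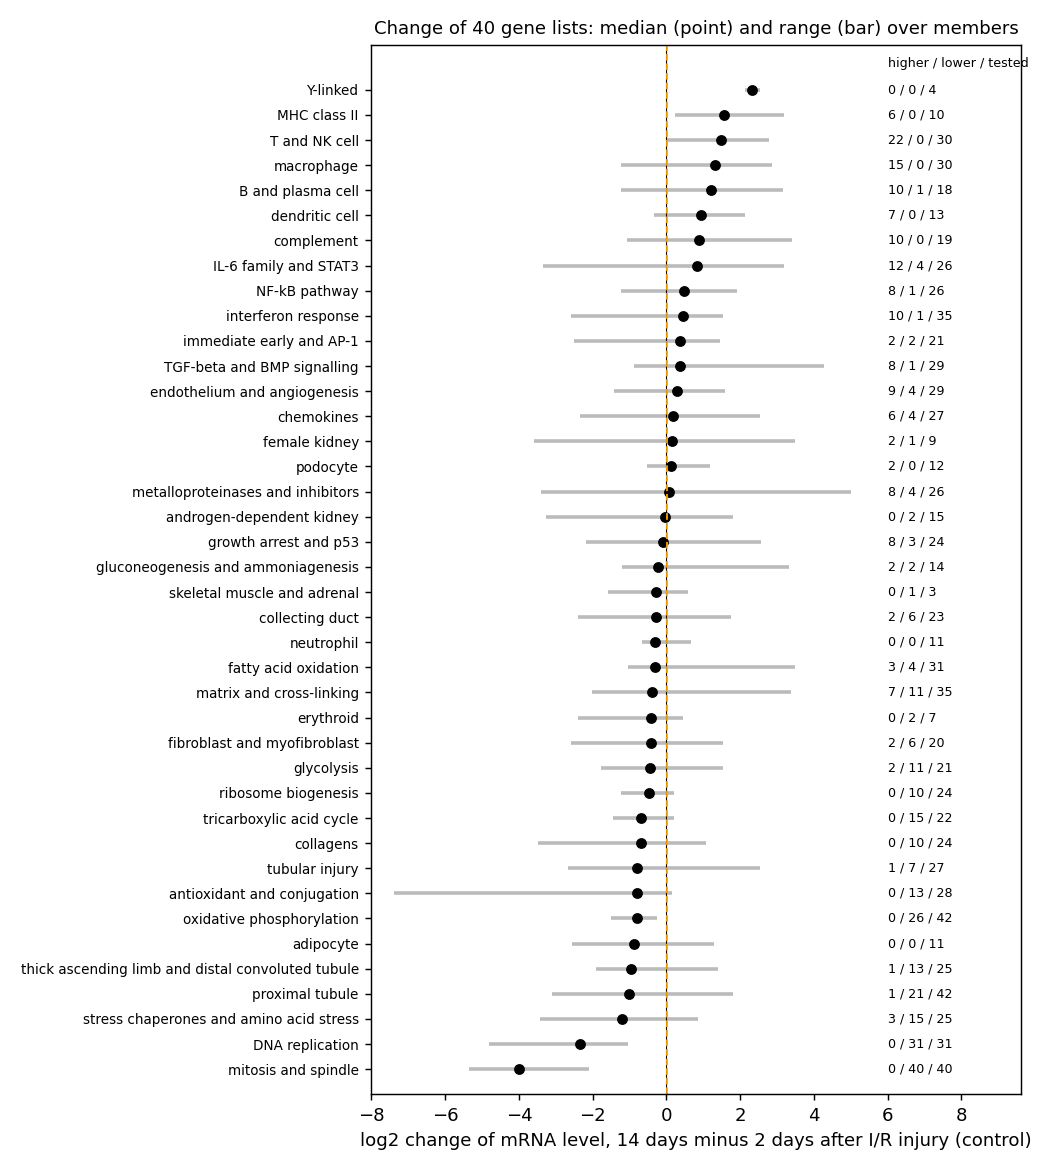
Log2 change of mRNA level between the 2 times in control kidneys for 40 gene lists. Points are medians over the tested members, bars run from the lowest to the highest member, the dashed line is the median of all tested genes (0.02), and the numbers at the right count members that rose, that fell and that were tested. Mitosis and DNA replication lists lie lowest, with medians of -4.00 and -2.33, and apart from the Y-linked genes, which marked single libraries, MHC class II and T and NK cell lists lie highest with 1.57 and 1.47.

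Genes of cell division fell as a block. All 40 genes of mitosis and spindle were lower at 14 days, with a median log2 change of -4.00, and all 31 genes of DNA replication were lower with a median of -2.33. Mki67, the marker of cycling cells, had levels of 2.25, 2.32 and 2.38 at 2 days and 0.136, 0.134 and 0.134 at 14 days (log2 fold change -4.05, SE 0.49, adjusted p = 2.63e-05). Top2a, the topoisomerase that untangles chromosomes before anaphase, had 1.71, 2.02 and 2.35 at 2 days and 0.0649, 0.0998 and 0.113 at 14 days (log2 fold change -4.40, SE 0.51, adjusted p = 1.71e-05). Cdc20, the activator of the anaphase-promoting complex (ENSMUSG00000006398, chromosome 4 of GRCm38 from 118432901 to 118437352), had 0.926, 1.14 and 1.21 at 2 days and 0.0520, 0.0464 and 0.0432 at 14 days (log2 fold change -4.39, SE 0.26, adjusted p = 3.65e-08). In these 3 genes every 14-day library was far below every 2-day library. The kinases Aurka (-3.64) and Ttk (-3.64), the spindle motor Kif20a (-4.01) and the spindle protein Dlgap5 (-4.05) had adjusted p from 2.73e-08 to 7.47e-08. Among replication genes, the sliding clamp Pcna had levels of 1.49, 1.71 and 2.01 at 2 days and 0.576, 0.490 and 0.525 at 14 days (log2 fold change -1.69, SE 0.14, adjusted p = 5.81e-07), and the helicase subunits Mcm2 and Mcm3 changed by -2.33 and -2.33. Enzymes that supply deoxynucleotides fell further: thymidine kinase Tk1 had 1.08, 1.25 and 1.27 at 2 days and 0.0696, 0.0550 and 0.0480 at 14 days (log2 fold change -4.28, SE 0.19, adjusted p = 2.93e-09), the ribonucleotide reductase subunit Rrm2 changed by -4.8 and thymidylate synthase Tyms by -2.83, and Cdc45, which unwinds DNA with the helicase, by -2.87. Both counts changed little without the doubtful libraries: 40 mitosis and 30 replication genes fell without 2-day replicates 1 and 2, and 40 and 29 without 14-day replicates 1 and 3. Against control baseline, the median of the mitosis list was 5.06 at 2 days and 1.09 at 14 days, and that of the replication list 2.90 and 0.47 (2 differences that share the baseline libraries).

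Mitotic genes are known to share promoter elements, the CCAAT box bound by NF-Y and the cell cycle genes homology region, whose core is TTTGAA. RefSeq promoters on GRCm38.p6, each a window of 300 bases around the start of transcription, matched by symbol for 33 of the 40 mitosis genes. CCAAT or its reverse complement ATTGG was in 26 of the 33 (78.8%), where 41.9% of the 12056 promoters of tested genes held it, and 18 (54.5%) held 2 or more, where 15.5% of those promoters did. TTTGAA or its reverse complement TTCAAA was in 25 of the 33 (75.8%) against 14.9%, and both motifs in 22 (66.7%) against 7.2%. Of 25 promoters of the replication list, 14 (56%) held CCAAT and 3 (12%) TTTGAA. A match is a description of these letters only. The promoters of the 3 mitosis genes described above are shown 5′ to 3′ in the direction of transcription with both motifs, on either strand, in capitals, since their genes fell the same way and hold both motifs. No matches overlap in them. They lie at chr7:135716330-135716629, minus strand (Mki67), chr11:99024140-99024439, minus strand (Top2a) and chr4:118437294-118437593, minus strand (Cdc20).
Mki67: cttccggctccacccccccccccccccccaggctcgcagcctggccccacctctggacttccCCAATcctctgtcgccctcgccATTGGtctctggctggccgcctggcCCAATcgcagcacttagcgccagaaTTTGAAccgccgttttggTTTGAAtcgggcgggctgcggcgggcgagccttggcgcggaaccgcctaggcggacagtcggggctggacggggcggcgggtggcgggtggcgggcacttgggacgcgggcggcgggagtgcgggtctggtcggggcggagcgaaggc
Top2a: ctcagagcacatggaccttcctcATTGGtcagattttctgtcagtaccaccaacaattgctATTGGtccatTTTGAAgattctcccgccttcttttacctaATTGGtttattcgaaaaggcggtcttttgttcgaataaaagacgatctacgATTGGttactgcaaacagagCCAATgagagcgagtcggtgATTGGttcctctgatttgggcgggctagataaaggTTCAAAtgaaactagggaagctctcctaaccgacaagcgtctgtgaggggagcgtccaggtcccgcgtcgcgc
Cdc20: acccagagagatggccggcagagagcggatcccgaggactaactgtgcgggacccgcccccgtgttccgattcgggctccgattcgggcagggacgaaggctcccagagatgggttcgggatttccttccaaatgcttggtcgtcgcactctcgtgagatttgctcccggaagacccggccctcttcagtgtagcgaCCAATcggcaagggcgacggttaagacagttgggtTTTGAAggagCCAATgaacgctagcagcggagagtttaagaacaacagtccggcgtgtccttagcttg
The Mki67 promoter holds 3 CCAAT boxes and 2 TTTGAA elements, that of Top2a 6 and 2, and that of Cdc20 2 and 1. In Cdc20 the CCAAT boxes begin at -53 and -8 and the TTTGAA element at -18, counted from the start at 1 with no position 0.

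Growth control genes outside the division machinery moved in both directions. Of 24 genes of growth arrest and p53, 8 rose and 3 fell (median -0.10). Cdkn1a, the p21 inhibitor of cyclin-dependent kinases, had 1.65, 1.72 and 1.86 at 2 days and 1.80, 2.29 and 1.62 at 14 days (log2 fold change 0.11, SE 0.63, adjusted p = 0.91), with overlapping groups, against a baseline mean of 0.310. Trp53inp1, a p53-induced stress gene, had 0.641, 0.385 and 0.608 at 2 days and 2.42, 4.96 and 2.65 at 14 days (log2 fold change 2.56, SE 0.41, adjusted p = 0.000288). Cdkn1b, which encodes the inhibitor p27, rose by 1.19 and the stress sensor Gadd45b by 2.09. Among the falls were Ccng1, a p53 target (-0.75), and Bax, which opens mitochondria in cell death (-0.57), while Mdm2, which degrades p53, had -0.19 (adjusted p = 0.27). Of 21 immediate early and AP-1 genes, 2 rose, Fosl2 (1.46) and Klf4 (1.45), and 2 fell, Fosl1 (-2.5) and the ERK phosphatase gene Dusp6 (-0.95). Fos had 0.284, 0.276 and 0.253 at 2 days and 0.285, 0.148 and 0.258 at 14 days (log2 fold change -0.28, SE 0.87, adjusted p = 0.832) and Egr1 0.914, 1.07 and 0.984 at 2 days and 1.06, 0.663 and 1.38 at 14 days (log2 fold change 0.01, SE 0.70, adjusted p = 0.995), without separation of the times, and Jun was not analysed here. Cdkn1b, Gadd45b, Ccng1, Bax, Fosl2, Klf4 and Dusp6 lost the call without 2-day replicates 1 and 2 (adjusted p from 0.0565 to 0.31), Ccng1, Bax, Klf4 and Dusp6 without 14-day replicates 1 and 3 (adjusted p from 0.0502 to 0.241), and Ccng1 and Bax in a fit that left out 1 library (2-day replicate 1, 2-day replicate 2, 2-day replicate 3, 14-day replicate 2 and 14-day replicate 3, adjusted p from 0.0589 to 0.18).

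Most genes of stress chaperones and amino acid stress were lower at 14 days. Of 25 stress chaperone and amino acid stress genes, 15 fell and 3 rose (median -1.19). Hspa5, the main chaperone of the endoplasmic reticulum, had 15.4, 14.8 and 16.3 at 2 days and 6.02, 5.73 and 5.06 at 14 days (log2 fold change -1.47, SE 0.13, adjusted p = 1.11e-06). Calr, the lectin chaperone calreticulin, had 20.4, 18.6 and 20.3 at 2 days and 4.61, 4.57 and 4.61 at 14 days (log2 fold change -2.10, SE 0.21, adjusted p = 3.44e-06). Phgdh, the entry enzyme of serine synthesis, had 0.822, 1.37 and 1.11 at 2 days and 0.0891, 0.0945 and 0.104 at 14 days (log2 fold change -3.43, SE 0.29, adjusted p = 7.49e-07). The 3 genes showed no overlap, and the 14-day means of all of them lay below the baseline means of 7.65, 9.66 and 0.231. The cytosolic chaperone Hsp90aa1 fell by 1.44 and the chaperone-associated gene Sdf2l1 by 2.42, and Ddit3, which encodes the stress factor CHOP, had 0.32 (adjusted p = 0.409). The 3 that rose were Herpud1 (0.76), Dnajb9 (0.69) and Xbp1 (0.52), all of the response to unfolded protein. Of 24 ribosome biogenesis genes, 10 fell and none rose (median -0.46). They included Fbl, the rRNA methyltransferase fibrillarin (-0.71, adjusted p = 0.00371), Nolc1 (-1.15), Bop1 (-1.23), Nop2 (-1.0) and Nop58 (-1.23), while the nucleolar proteins Ncl (-0.22, adjusted p = 0.228) and Npm1 (-0.34, adjusted p = 0.214) did not pass. Without 2-day replicates 1 and 2 the falls were 12 and 7, and without 14-day replicates 1 and 3 they were 14 and 8. Herpud1, Dnajb9 and Xbp1 lost the call without 2-day replicates 1 and 2 (adjusted p from 0.271 to 0.571), all 3 without 14-day replicates 1 and 3 (adjusted p from 0.0543 to 0.0902), and all 3 in a fit that left out 1 library (each of the 6 ended at least 1 of these calls, adjusted p from 0.0524 to 0.193).

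Markers of injured tubule were mixed at 14 days. Of 27 genes, 7 fell and 1 rose (median -0.80), and without 2-day replicates 1 and 2 or 14-day replicates 1 and 3 the falls were 3 and 3. Havcr1, the gene of the injury molecule KIM-1 (ENSMUSG00000040405, chromosome 11 of GRCm38 from 46735080 to 46779578), had 16.8, 16.3 and 21.5 at 2 days and 3.66, 4.07 and 1.51 at 14 days (log2 fold change -2.68, SE 1.05, adjusted p = 0.0612), every 14-day library below every 2-day library, against a baseline mean of 0.0756. Lcn2, the iron-binding injury marker NGAL, had 2.32, 5.02 and 6.98 at 2 days and 6.36, 7.56 and 6.64 at 14 days (log2 fold change 0.66, SE 0.65, adjusted p = 0.464), and Vcam1, an adhesion molecule of tubules that fail to repair, had 1.88, 3.04 and 5.08 at 2 days and 6.87, 4.58 and 3.68 at 14 days (log2 fold change 0.66, SE 0.53, adjusted p = 0.357). Both overlapped between the times and stood above their baseline means of 0.110 and 0.209 in every library. Cp, the copper oxidase ceruloplasmin, was the 1 gene of the list that rose, with 1.37, 1.78 and 3.68 at 2 days and 12.4, 13 and 11.2 at 14 days (log2 fold change 2.54, SE 0.45, adjusted p = 0.000631). The intermediate filament gene Vim had 7.79, 11.7 and 9.25 at 2 days and 3.06, 2.98 and 2.88 at 14 days (log2 fold change -1.67, SE 0.34, adjusted p = 0.00155), the membrane-binding Anxa2 fell by 1.53 and the urokinase receptor gene Plaur by 1.37. Ceruloplasmin mRNA was near its baseline mean (2.41) at 2 days and above it in every 14-day library. Cp lost the call without 2-day replicates 1 and 2 (adjusted p = 0.082).

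Macrophage genes were higher at 14 days. Of 30 genes, 15 rose and none fell (median 1.31), and the summed level of the list was 19.4 to 22.7 at 2 days and 76.9 to 97.8 at 14 days. Much of each 14-day sum came from Apoe, which gave 4.90 to 6.79 of the sums at 2 days and 37.8 to 47.1 at 14 days. Csf1r, the receptor for the macrophage growth factor CSF1, had 1.16, 0.895 and 0.745 at 2 days and 2.11, 2.38 and 2.28 at 14 days (log2 fold change 1.29, SE 0.23, adjusted p = 0.000672). Apoe, which encodes a lipid carrier that macrophages and other cells make, had 4.90, 6.79 and 5.44 at 2 days and 47.1, 37.8 and 38.5 at 14 days (log2 fold change 2.85, SE 0.26, adjusted p = 1.4e-06). Clec7a, the beta-glucan receptor dectin-1, had 0.103, 0.0802 and 0.0395 at 2 days and 0.614, 0.434 and 0.533 at 14 days (log2 fold change 2.83, SE 0.45, adjusted p = 0.000256), and no library of one time reached the other in these 3 genes. The efferocytosis receptor Mertk rose by 1.29 and Ms4a7 by 2.28. Adgre1, which encodes F4/80, had 0.395, 0.284 and 0.275 at 2 days and 0.514, 0.427 and 0.428 at 14 days (log2 fold change 0.53, SE 0.43, adjusted p = 0.359) and Cd68, a lysosomal marker, had 0.374, 0.405 and 0.316 at 2 days and 0.723, 0.743 and 0.667 at 14 days (log2 fold change 0.96, SE 0.45, adjusted p = 0.115). These 2 pan-macrophage genes did not pass the test. They lay higher in every 14-day library, and 51.2% of all tested genes separated the times. Without 2-day replicates 1 and 2 there were 7 rises, and without 14-day replicates 1 and 3 there were 6.

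None of the neutrophil genes passed the test. Of 11 tested genes 0 passed in either direction (median -0.31), by limma at the adjusted or the unadjusted threshold, edgeR or DESeq2. S100a8, a subunit of the granule protein calprotectin, had 0.169, 0.154 and 0.210 at 2 days and 0.236, 0.0843 and 0.0918 at 14 days (log2 fold change -0.51, SE 0.60, adjusted p = 0.545), its partner S100a9 0.208, 0.209 and 0.234 at 2 days and 0.335, 0.0763 and 0.0973 at 14 days (log2 fold change -0.65, SE 0.64, adjusted p = 0.456), and Mmp9, a gelatinase, 0.103, 0.110 and 0.108 at 2 days and 0.108, 0.0939 and 0.0882 at 14 days (log2 fold change -0.15, SE 0.25, adjusted p = 0.68). Levels of S100a8 and S100a9 were highest in 14-day replicate 1, and Mmp9 had nearly the same level in all 6 libraries. The summed level of the list was 3.30 to 7.95 at 2 days and 7.34 to 8.18 at 14 days, but most of each sum came from Lcn2, which injured tubule also expresses. Without Lcn2 the sum was 0.868 to 0.981 at 2 days and 0.618 to 1.28 at 14 days, with overlap of the times.

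Lymphocyte genes rose from low levels. Of 30 T and NK cell genes, 22 rose and none fell (median 1.47), and the whole list summed to 0.261 to 0.334 at 2 days and 0.830 to 1.43 at 14 days, against 0.112 to 0.166 at baseline. Cd4, the co-receptor of helper T cells, had 0.0141, 0.0250 and 0.0141 at 2 days and 0.161, 0.137 and 0.148 at 14 days (log2 fold change 2.79, SE 0.37, adjusted p = 6.23e-05). Cd3e, a subunit of the T cell receptor complex, had 0.00596, 0.00832 and 0.00530 at 2 days and 0.0352, 0.0149 and 0.0304 at 14 days (log2 fold change 1.41, SE 0.28, adjusted p = 0.00126). In these genes the lowest 14-day library exceeded the highest 2-day library. The kinase Zap70 rose by 1.79, Cd5 by 1.47 and the cytokine receptor gene Il2rb by 1.64, while Cd8a, of cytotoxic T cells, had 0.0104, 0.0197 and 0.00589 at 2 days and 0.0417, 0.0203 and 0.0219 at 14 days (log2 fold change 0.98, SE 0.43, adjusted p = 0.0904). Of 18 B and plasma cell genes, 10 rose and 1 fell (median 1.22). Jchain, which joins secreted IgA and IgM, had 0.0715, 0.0583 and 0.139 at 2 days and 0.560, 0.346 and 0.490 at 14 days (log2 fold change 2.38, SE 0.42, adjusted p = 0.00065) and Igha, the IgA heavy chain, 0.276, 0.204 and 0.768 at 2 days and 2.15, 1.75 and 2.89 at 14 days (log2 fold change 2.64, SE 0.47, adjusted p = 0.000633). Ighm (2.07), Ighg2b (3.15), the B cell lectin Cd22 (2.19) and the plasma cell regulator Prdm1 (1.53) also rose, Derl3, of protein export in secretory cells, fell (-1.22), and Cd79a, of the B cell receptor, had 0.00745, 0.00605 and 0.00295 at 2 days and 0.0148, 0.00854 and 0.00851 at 14 days (log2 fold change 0.58, SE 0.28, adjusted p = 0.125). Of 13 dendritic cell genes, 7 rose and none fell (median 0.93), with the growth factor receptor Flt3 at 1.92, Cd209a at 2.12, the migration receptor Ccr7 at 1.64 and the chemokine genes Ccl17 and Ccl22 at 1.85 and 1.64. Itgax, which encodes CD11c, had 0.93 (adjusted p = 0.232) and Xcr1, of cross-presenting cells, 0.14 (adjusted p = 0.727). Without 2-day replicates 1 and 2 the rises were 16, 4 and 3 for the 3 lists in this order, and without 14-day replicates 1 and 3 they were 11, 5 and 3. Jchain, Igha, Ighm, Derl3, Flt3 and Cd209a lost the call without 2-day replicates 1 and 2 (adjusted p from 0.0501 to 0.12), Cd3e, Ighm, Cd209a and Ccr7 without 14-day replicates 1 and 3 (adjusted p from 0.0928 to 0.176), and Ighm in a fit that left out 1 library (2-day replicate 2, 2-day replicate 3, 14-day replicate 1 and 14-day replicate 2, adjusted p from 0.0806 to 0.124).

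**Figure D2:**
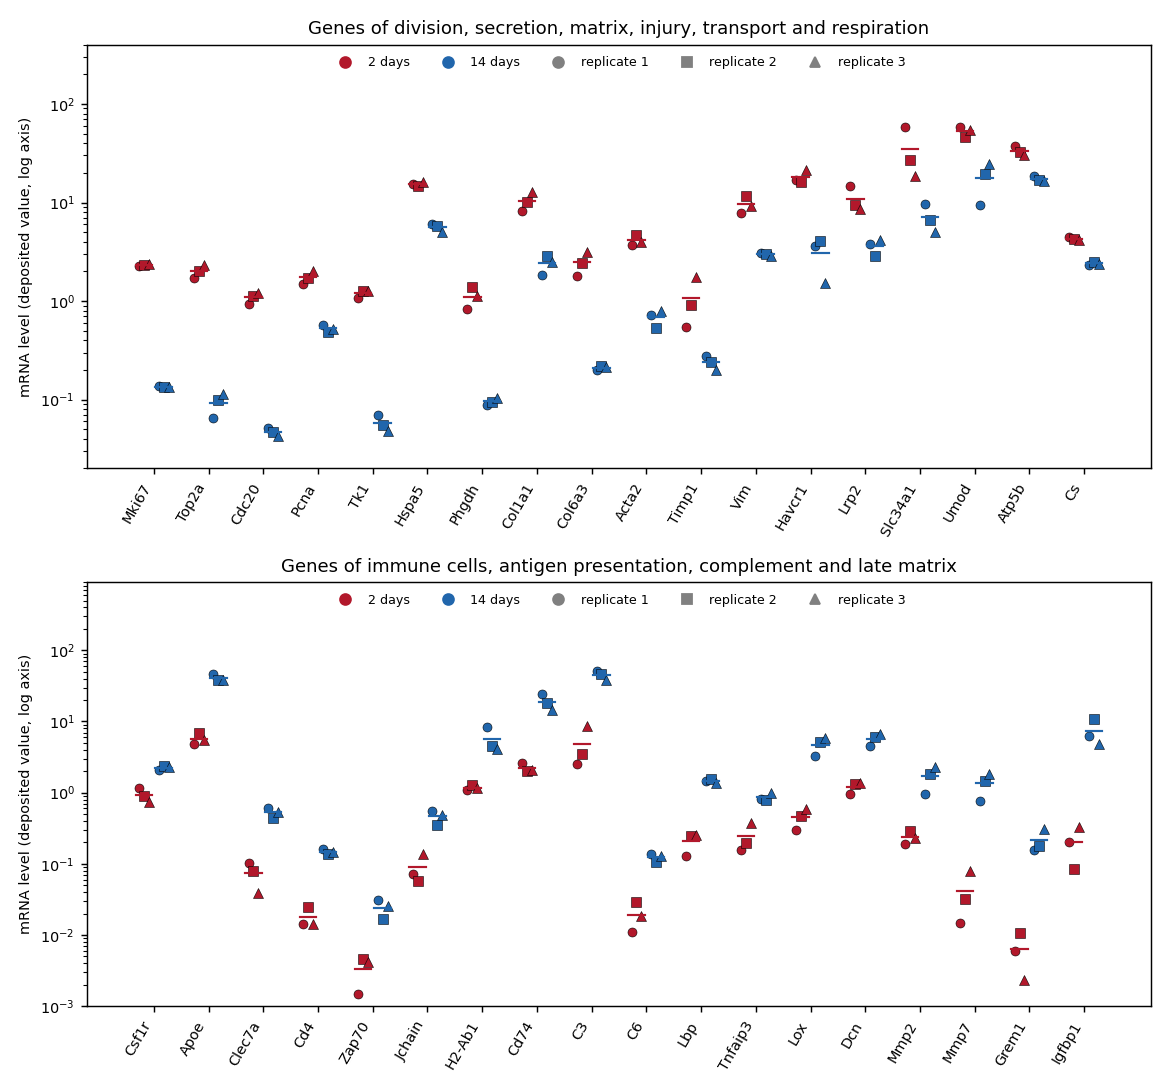
mRNA level (deposited value, log axis) of 36 genes in the 3 control libraries at 2 days (red) and the 3 at 14 days (blue) after injury, with a marker shape for each replicate and a line at the mean of each time. The upper panel shows genes of division, folding, matrix, injury, transport and respiration, each with all 14-day libraries below all 2-day libraries. The lower panel shows genes of immune cells, complement and matrix, each with all 14-day libraries above, and Havcr1 is the gene of the 36 that did not pass the test. Only genes that separate the times are drawn, which 51.2% of all tested genes did, and list members with overlap are left out.

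MHC class II genes, whose products present peptides to CD4 T cells, had the highest median of the immune lists. Of 10 genes, 6 rose and none fell (median 1.57), and their summed level was 5.40 to 6.18 at 2 days and 29.8 to 52.7 at 14 days. Cd74, the invariant chain, had 2.62, 1.99 and 2.09 at 2 days and 24.2, 18.4 and 14.6 at 14 days (log2 fold change 3.07, SE 0.46, adjusted p = 0.000168). H2-Aa, an alpha chain, had 0.914, 0.749 and 0.720 at 2 days and 10.1, 6.57 and 5.75 at 14 days (log2 fold change 3.19, SE 0.49, adjusted p = 0.000216) and H2-Ab1, its beta chain, 1.09, 1.28 and 1.15 at 2 days and 8.46, 4.58 and 4.12 at 14 days (log2 fold change 2.21, SE 0.54, adjusted p = 0.0053). H2-Eb1 rose by 2.90, H2-Oa, which edits loading in B cells, by 1.48, and Ciita, the transactivator of the class, by 1.66. In each of them 14-day libraries lay above all 2-day libraries, with replicate 1 the highest for the classical chains and replicate 3 for Ciita. The class is known to be driven through a promoter module that ends in a CCAAT box on the reverse strand (the Y box). All 7 class II promoters matched in RefSeq held CCAAT or ATTGG (100%, against 41.9% of promoters of tested genes) and none held TTTGAA. The promoters of H2-Aa (chr17:34287774-34288073, minus strand) and H2-Eb1 (chr17:34305617-34305916, plus strand) are shown for comparison with those of the mitotic genes, with CCAAT or ATTGG in capitals, since the same short element stands in promoters of genes that rose.
H2-Aa: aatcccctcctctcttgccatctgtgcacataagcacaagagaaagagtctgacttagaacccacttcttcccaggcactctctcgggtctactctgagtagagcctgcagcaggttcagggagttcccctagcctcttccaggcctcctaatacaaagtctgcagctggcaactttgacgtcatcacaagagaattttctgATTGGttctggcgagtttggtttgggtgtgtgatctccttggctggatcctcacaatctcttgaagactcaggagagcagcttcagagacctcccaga
H2-Eb1: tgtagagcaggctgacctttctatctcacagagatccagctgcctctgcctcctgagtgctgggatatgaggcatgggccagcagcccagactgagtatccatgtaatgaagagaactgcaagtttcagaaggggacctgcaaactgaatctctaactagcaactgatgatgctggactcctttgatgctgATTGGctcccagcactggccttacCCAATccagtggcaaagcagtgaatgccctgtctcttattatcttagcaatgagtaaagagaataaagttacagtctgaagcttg
In H2-Aa the single match, ATTGG, begins at -48, and in H2-Eb1 ATTGG begins at -59 and CCAAT at -35.
The rises among class II genes were 3 without 2-day replicates 1 and 2 and 3 without 14-day replicates 1 and 3. H2-Ab1, H2-Oa and Ciita lost the call without 2-day replicates 1 and 2 (adjusted p from 0.0887 to 0.0957), all 3 without 14-day replicates 1 and 3 (adjusted p from 0.0935 to 0.275), and Ciita in a fit that left out 1 library (2-day replicate 3 and 14-day replicate 3, adjusted p from 0.0645 to 0.0649).

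Complement genes rose with them. Of 19 genes, 10 rose and none fell (median 0.88), and the sum of the list was 11.8 to 25.7 at 2 days and 69.7 to 83.9 at 14 days. C3, the central component (ENSMUSG00000024164, chromosome 17 of GRCm38 from 57203970 to 57228136), had 2.54, 3.46 and 8.68 at 2 days and 50.7, 46.2 and 37.9 at 14 days (log2 fold change 3.39, SE 0.60, adjusted p = 0.000621). C1s1, a protease of the classical pathway, rose by 1.61, C6, of the membrane attack complex, by 2.46, and the C1 inhibitor gene Serping1 by 1.54. In 14-day replicate 2 C3 stood at 46.2, and the liver list described below summed to 2.15. That sum was the lowest of its time but above every 2-day library (0.577 to 2.04). The part of liver tissue in the C3 level was not tested. Cfb, the factor B of the alternative pathway, had 0.342, 0.269 and 0.379 at 2 days and 0.242, 0.345 and 0.303 at 14 days (log2 fold change -0.15, SE 0.30, adjusted p = 0.732) and C4b 0.310, 0.437 and 0.470 at 2 days and 0.981, 0.795 and 0.514 at 14 days (log2 fold change 0.88, SE 0.45, adjusted p = 0.147), and neither passed. Rises numbered 6 without 2-day replicates 1 and 2 and 6 without 14-day replicates 1 and 3. C3 lost the call without 2-day replicates 1 and 2 (adjusted p = 0.0779).

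Cytokine, interferon and NF-κB genes were split. Of 26 genes of the IL-6 family and STAT3, 12 rose and 4 fell (median 0.84). Il6 itself was low, with 0.00521, 0.00605 and 0.00707 at 2 days and 0.00464, 0.00107 and 0.00243 at 14 days (log2 fold change -0.55, SE 0.22, adjusted p = 0.0638). Stat3, its transcription factor, had 1.89, 2.10 and 2.44 at 2 days and 3.10, 3.85 and 3.95 at 14 days (log2 fold change 0.76, SE 0.26, adjusted p = 0.0318), and the receptor gene Il6ra had 0.172, 0.165 and 0.185 at 2 days and 0.507, 0.775 and 0.837 at 14 days (log2 fold change 1.96, SE 0.27, adjusted p = 7.59e-05). Lbp, an acute phase gene whose product binds lipopolysaccharide, had 0.130, 0.248 and 0.253 at 2 days and 1.45, 1.54 and 1.35 at 14 days (log2 fold change 2.81, SE 0.41, adjusted p = 0.000127), and the serum amyloid gene Saa1 rose by 3.03. Il24, a cytokine of the IL-10 family, went the other way with 0.0804, 0.0416 and 0.0618 at 2 days and 0.000928, 0.00107 and 0.00182 at 14 days (log2 fold change -3.36, SE 0.21, adjusted p = 5.99e-08), along with Il1rn, the antagonist of the IL-1 receptor (-1.65), Il11 (-1.30) and the cardiotrophin gene Ctf1 (-0.66), and the feedback inhibitor Socs3 had 0.417, 0.494 and 0.936 at 2 days and 1.23, 0.999 and 1.51 at 14 days (log2 fold change 1.08, SE 0.56, adjusted p = 0.149). Of 35 interferon genes 10 rose and 1 fell (median 0.44). Irf7 and Isg15, a regulator and an induced gene of the response, had -0.30 and -0.75 without a call. Mx1 (1.49), Gbp7 (1.52) and the class I chain H2-K1 (1.32) rose, and Ifi27l2a fell with 0.607, 1.56 and 1.38 at 2 days and 0.292, 0.137 and 0.137 at 14 days (log2 fold change -2.60, SE 0.60, adjusted p = 0.00386). Stat3, Il1rn, Il11, Ctf1, Mx1, Gbp7 and H2-K1 lost the call without 2-day replicates 1 and 2 (adjusted p from 0.0544 to 0.369), Stat3, Gbp7 and H2-K1 without 14-day replicates 1 and 3 (adjusted p from 0.0504 to 0.135), and Stat3, Il1rn, Il11 and Ctf1 in a fit that left out 1 library (2-day replicate 1, 2-day replicate 2, 14-day replicate 2 and 14-day replicate 3, adjusted p from 0.0521 to 0.104).

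In the NF-κB pathway, whose kinase IKKβ is the target of the deletion in the other strain, 8 of 26 genes rose and 1 fell (median 0.47). Nfkb1 and Rela, which encode the p50 precursor and p65, had 0.32 (adjusted p = 0.307) and 0.51 (adjusted p = 0.113). The inhibitor genes that NF-κB itself induces were higher, Nfkbia with 0.792, 1.07 and 1.66 at 2 days and 2.35, 2.19 and 2.27 at 14 days (log2 fold change 1.01, SE 0.32, adjusted p = 0.0221) and Tnfaip3, which encodes A20, with 0.156, 0.198 and 0.379 at 2 days and 0.815, 0.801 and 0.995 at 14 days (log2 fold change 1.91, SE 0.30, adjusted p = 0.000254). In both the 2-day replicate 3 was the highest of its time and still below every 14-day library. Ikbkg, the regulatory subunit of the kinase, rose by 0.73, the TNF receptor gene Tnfrsf1b by 1.59 and the ubiquitin ligase Birc3 by 1.51, and Ripk3, a kinase of necroptosis, fell by 1.24. Of 27 chemokine genes 6 rose and 4 fell (median 0.18). Ccl2, which draws monocytes, had 0.158, 0.222 and 0.256 at 2 days and 0.762, 0.383 and 0.241 at 14 days (log2 fold change 0.97, SE 0.50, adjusted p = 0.143), the neutrophil chemokine gene Cxcl1 0.306, 0.687 and 0.796 at 2 days and 0.540, 0.176 and 0.370 at 14 days (log2 fold change -0.74, SE 0.67, adjusted p = 0.418), and Cxcl16 1.43, 1.56 and 1.68 at 2 days and 2.77, 1.62 and 1.62 at 14 days (log2 fold change 0.32, SE 0.36, adjusted p = 0.524), all 3 with overlap. Cx3cl1, the membrane-bound fractalkine, had 3.07, 3.10 and 3.90 at 2 days and 1.02, 0.939 and 1.15 at 14 days (log2 fold change -1.69, SE 0.21, adjusted p = 3.88e-05), the platelet chemokine gene Pf4 fell by 2.34, Cxcl14 by 1.15 and Ccl25 by 0.84, and Ccl3 rose by 1.86. In the fits without 2-day replicates 1 and 2 the rises were 5 in the IL-6, 0 in the interferon, 2 in the NF-κB and 4 in the chemokine list, and without 14-day replicates 1 and 3 9, 1, 4 and 5. Nfkbia, Tnfrsf1b, Birc3, Ripk3, Cxcl14 and Ccl25 lost the call without 2-day replicates 1 and 2 (adjusted p from 0.0512 to 0.526), Nfkbia, Ripk3, Cxcl14 and Ccl25 without 14-day replicates 1 and 3 (adjusted p from 0.0826 to 0.18), and Nfkbia and Cxcl14 in a fit that left out 1 library (each of the 6 ended at least 1 of these calls, adjusted p from 0.0505 to 0.106).

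**Figure D3:**
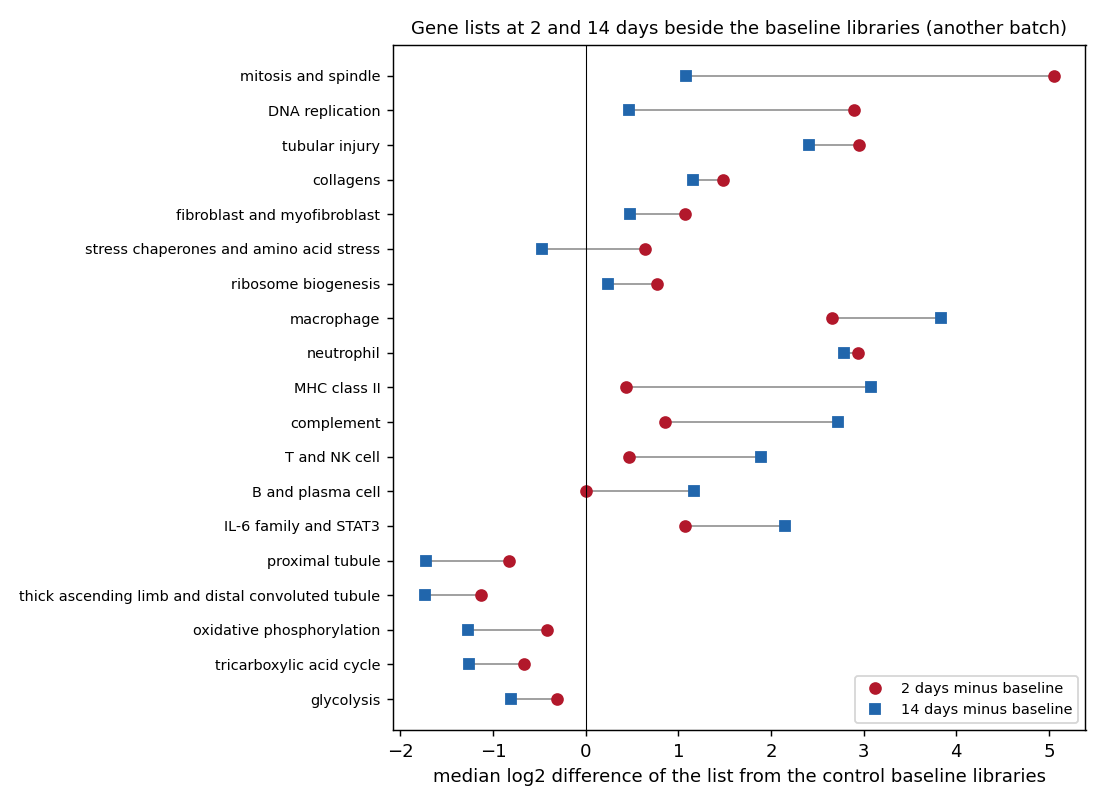
Median log2 difference of 19 gene lists from the 3 control baseline libraries at 2 days (red circles) and 14 days (blue squares). Both times share the baseline libraries, which belong to another and deeper library set and have almost no Y-linked expression. The mitosis list lies at 5.06 and 1.09, the MHC class II list at 0.43 and 3.08, and the proximal tubule list at -0.83 and -1.72.

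Collagen genes fell or were not called, and other matrix genes divided into falls and rises. Of 24 collagen genes 10 fell, none rose and 14 were not called (median -0.70). Col1a1, the main fibrillar chain, had 8.18, 10 and 12.7 at 2 days and 1.84, 2.90 and 2.49 at 14 days (log2 fold change -2.10, SE 0.54, adjusted p = 0.00748) and Col3a1 11.5, 16.4 and 21.7 at 2 days and 2.73, 3.42 and 3.33 at 14 days (log2 fold change -2.35, SE 0.61, adjusted p = 0.00771). Col6a3, of the microfibrillar collagen, had 1.81, 2.44 and 3.17 at 2 days and 0.198, 0.218 and 0.213 at 14 days (log2 fold change -3.50, SE 0.46, adjusted p = 6.31e-05). The 14-day levels of Col1a1 and Col3a1 were below all 2-day levels and above the baseline means of 0.427 and 0.456. For Col6a3 the difference of 14 days from baseline was 0.03 on the log2 scale. Col5a1 fell by 2.03, Col14a1 by 1.65 and Col8a1 by 1.59, and the basement membrane chain Col4a1 had 10.7, 11.6 and 12.6 at 2 days and 7.56, 12.3 and 13 at 14 days (log2 fold change -0.12, SE 0.25, adjusted p = 0.738). In the list of other matrix and cross-linking genes, 7 of 35 rose and 11 fell (median -0.40). Lox, the enzyme that cross-links collagen, had 0.295, 0.476 and 0.586 at 2 days and 3.28, 5.11 and 5.81 at 14 days (log2 fold change 3.39, SE 0.57, adjusted p = 0.000441). Dcn, the proteoglycan decorin, had 0.943, 1.33 and 1.37 at 2 days and 4.53, 6.04 and 6.71 at 14 days (log2 fold change 2.24, SE 0.26, adjusted p = 2.09e-05). Fn1, fibronectin, had 2.0, 2.54 and 2.88 at 2 days and 1.54, 3.68 and 3.69 at 14 days (log2 fold change 0.17, SE 0.39, adjusted p = 0.771), with 14-day replicate 1 below and replicates 2 and 3 above the 2-day libraries. Postn, periostin, fell by 1.53, the procollagen processing gene Pcolce by 1.71, the prolyl hydroxylase P4ha1 by 1.22 and the transglutaminase Tgm2 by 1.11. Without the doubtful libraries of 2 or of 14 days, 3 or 4 genes of this list rose and 6 or 4 fell. Col1a1, Col3a1 and Postn lost the call without 2-day replicates 1 and 2 (adjusted p from 0.0612 to 0.0782), all 3 without 14-day replicates 1 and 3 (adjusted p from 0.105 to 0.135), and Postn in a fit that left out 1 library (2-day replicate 2, 2-day replicate 3, 14-day replicate 2 and 14-day replicate 3, adjusted p from 0.0546 to 0.0761).

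Genes of matrix proteases and of their inhibitors moved in both directions. Of 26 metalloproteinases and inhibitors 8 rose and 4 fell (median 0.07). Mmp7, matrilysin, a tubular protease, had 0.0149, 0.0318 and 0.0795 at 2 days and 0.769, 1.48 and 1.81 at 14 days (log2 fold change 5.01, SE 0.89, adjusted p = 0.000631). Mmp2, a gelatinase of fibroblasts, had 0.190, 0.289 and 0.234 at 2 days and 0.972, 1.81 and 2.32 at 14 days (log2 fold change 2.74, SE 0.51, adjusted p = 0.000854). Timp1, the inducible inhibitor, had 0.545, 0.915 and 1.76 at 2 days and 0.278, 0.238 and 0.199 at 14 days (log2 fold change -2.0, SE 0.70, adjusted p = 0.0368). For Mmp7 and Mmp2 the 14-day replicate 1 was the lowest of its time, and no library crossed to the other side. Mmp14 rose by 1.62 and Timp2 by 1.81. Adam12 fell by 3.41, Mmp17 by 1.65 and the stromelysin gene Mmp10 by 1.37. Of 20 fibroblast and myofibroblast genes 6 fell, 2 rose and 12 were not called (median -0.43). Acta2, smooth muscle actin, had 3.72, 4.71 and 3.93 at 2 days and 0.725, 0.539 and 0.789 at 14 days (log2 fold change -2.59, SE 0.28, adjusted p = 8.06e-06), Myl9 fell by 2.11, Tagln by 1.59 and Des by 0.97. The receptors that mark fibroblasts and pericytes did not pass, Pdgfra with 1.12, 1.17 and 1.67 at 2 days and 1.47, 3.10 and 4.26 at 14 days (log2 fold change 1.05, SE 0.40, adjusted p = 0.0521) and Pdgfrb with 2.04, 2.63 and 2.29 at 2 days and 1.24, 1.54 and 2.12 at 14 days (log2 fold change -0.53, SE 0.24, adjusted p = 0.0967), and Gli1, a hedgehog target of perivascular cells, rose by 1.54, as did Fap, a protease of activated fibroblasts (1.24). Leaving out 2-day replicates 1 and 2, 6 collagen genes and 4 fibroblast genes fell, and without 14-day replicates 1 and 3 it was 5 and 5. Mmp7, Timp1, Mmp10, Gli1 and Fap lost the call without 2-day replicates 1 and 2 (adjusted p from 0.0624 to 0.513), Timp1, Mmp10, Gli1 and Fap without 14-day replicates 1 and 3 (adjusted p from 0.0589 to 0.204), and Timp1 and Mmp10 in a fit that left out 1 library (each of the 6 ended at least 1 of these calls, adjusted p from 0.0538 to 0.144).

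Of 29 genes of TGF-beta and BMP signalling 8 rose and 1 fell (median 0.38). Tgfb1, the main profibrotic ligand, had 0.668, 0.734 and 0.810 at 2 days and 0.642, 0.622 and 0.730 at 14 days (log2 fold change -0.15, SE 0.21, adjusted p = 0.626), while Tgfb2 had 0.0387, 0.0446 and 0.0454 at 2 days and 0.169, 0.224 and 0.254 at 14 days (log2 fold change 2.19, SE 0.48, adjusted p = 0.00262). Grem1, the BMP antagonist gremlin-1, had 0.00596, 0.0106 and 0.00236 at 2 days and 0.156, 0.180 and 0.306 at 14 days (log2 fold change 4.28, SE 0.57, adjusted p = 6.21e-05). Ctgf, which encodes the matricellular protein CCN2, had 4.8, 3.69 and 4.16 at 2 days and 7.67, 6.81 and 8.62 at 14 days (log2 fold change 0.87, SE 0.36, adjusted p = 0.0715). Bmp7, a BMP of tubule and podocyte, changed by -0.78 and fell, and the co-receptor Tgfbr3 rose by 1.34 and Bmp4 by 0.82. Tgfb2 and Grem1 stood at 2 days below their baseline means of 0.145 and 0.0401. The rises were 2 without 2-day replicates 1 and 2 and 3 without 14-day replicates 1 and 3. Tgfb2, Bmp7 and Bmp4 lost the call without 2-day replicates 1 and 2 (adjusted p from 0.0735 to 0.37), Bmp7 and Bmp4 without 14-day replicates 1 and 3 (adjusted p from 0.0643 to 0.0881), and Bmp7 in a fit that left out 1 library (2-day replicate 1, 2-day replicate 2, 14-day replicate 2 and 14-day replicate 3, adjusted p from 0.0551 to 0.0769).

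Endothelial genes had 9 rises and 4 falls among 29 (median 0.28). The share that rose was above the background of 16.6%, and the share that fell was below that of 17.7%. Pecam1, which encodes CD31, had 0.871, 1.05 and 1.01 at 2 days and 1.26, 1.56 and 1.94 at 14 days (log2 fold change 0.68, SE 0.17, adjusted p = 0.0058). Kdr, the VEGF receptor, had 0.587, 0.697 and 0.565 at 2 days and 0.527, 0.554 and 0.988 at 14 days (log2 fold change 0.11, SE 0.25, adjusted p = 0.776), and Vegfa, its ligand, 1.44, 1.73 and 1.56 at 2 days and 1.61, 0.945 and 1.30 at 14 days (log2 fold change -0.32, SE 0.23, adjusted p = 0.297). Igfbp3, an IGF binding protein of vessels, rose by 1.56, Angpt2 by 1.21 and Esm1 by 1.28, and the co-receptor Eng fell by 0.87, Igfbp5 by 1.41, Angpt1 by 0.83 and the apelin receptor gene Aplnr by 0.67. Of the list 2 rose without the doubtful 2-day libraries and 3 without 14-day replicates 1 and 3. Of 12 podocyte genes 2 rose and none fell (median 0.11). The slit diaphragm gene Nphs1 had -0.11 and Podxl 0.00, neither called, and Wt1 (0.75) and Thsd7a (1.18) rose. Pecam1, Esm1, Eng, Igfbp5, Angpt1, Aplnr, Wt1 and Thsd7a lost the call without 2-day replicates 1 and 2 (adjusted p from 0.0769 to 0.531), Esm1, Igfbp5, Angpt1, Aplnr and Wt1 without 14-day replicates 1 and 3 (adjusted p from 0.0519 to 0.118), and Igfbp5, Angpt1, Aplnr and Thsd7a in a fit that left out 1 library (each of the 6 ended at least 1 of these calls, adjusted p from 0.0508 to 0.158).

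Tubular transport genes fell from 2 to 14 days. Of 42 proximal tubule genes 21 fell and 1 rose (median -1.03). Slc34a1, the phosphate transporter, had 59.0, 27.1 and 18.6 at 2 days and 9.70, 6.59 and 4.99 at 14 days (log2 fold change -2.18, SE 0.42, adjusted p = 0.00119). Lrp2, the endocytic receptor megalin, had 14.6, 9.41 and 8.66 at 2 days and 3.76, 2.85 and 4.16 at 14 days (log2 fold change -1.58, SE 0.39, adjusted p = 0.00634), and Slc5a2, the glucose transporter SGLT2, 4.60, 2.53 and 1.68 at 2 days and 0.956, 0.858 and 1.01 at 14 days (log2 fold change -1.51, SE 0.38, adjusted p = 0.00673). In these genes 2-day replicate 1 was the highest of the 6 libraries, and the baseline means were 61.1 for Slc34a1, 28.2 for Lrp2 and 5.07 for Slc5a2. Miox, the inositol oxygenase, had 22.5, 10.8 and 6.39 at 2 days and 1.42, 1.2 and 1.40 at 14 days (log2 fold change -3.11, SE 0.51, adjusted p = 0.000334). The scaffold gene Pdzk1 fell by 2.18, the sulfate transporter Slc13a1 by 1.82 and the glucose transporter Slc2a2 by 1.63, and the neutral amino acid transporter gene Slc6a19 was the one that rose (1.36). Of 25 genes of the thick ascending limb and distal convoluted tubule 13 fell and 1 rose (median -0.95). Umod, uromodulin, had 58.1, 45.9 and 54.9 at 2 days and 9.39, 19.6 and 24.5 at 14 days (log2 fold change -1.67, SE 0.44, adjusted p = 0.0083). Slc12a1, the target of loop diuretics, had 7.32, 3.57 and 4.82 at 2 days and 1.39, 1.83 and 2.63 at 14 days (log2 fold change -1.41, SE 0.44, adjusted p = 0.022), and Slc12a3, the thiazide target, 4.15, 4.94 and 4.95 at 2 days and 1.11, 1.19 and 2.10 at 14 days (log2 fold change -1.73, SE 0.46, adjusted p = 0.00926). Trpm6, a magnesium channel, was the gene that rose (1.39), and Fxyd2, of the sodium pump, fell by 1.77, Cldn10 by 1.07 and Cldn16 by 0.95. Collecting duct genes had 6 falls and 2 rises of 23 (median -0.29). Aqp2, the vasopressin-regulated water channel, had 1.21, 2.70 and 1.45 at 2 days and 0.878, 0.447 and 1.52 at 14 days (log2 fold change -0.99, SE 0.51, adjusted p = 0.144), the sodium channel subunit Scnn1b 0.36 and the proton pump subunit Atp6v1g3 -0.50, none called. Rhbg fell by 1.60 and Atp6v1b1 by 1.12, and Kit (1.74) and Atp6v0d2 (1.35) rose. These counts depended on the doubtful libraries: without 2-day replicates 1 and 2 the falls were 7, 1 and 0 for the 3 segments in this order, and without 14-day replicates 1 and 3 they were 14, 7 and 6. Slc34a1, Lrp2, Slc5a2, Umod, Slc12a1, Slc12a3, Cldn10, Cldn16, Rhbg and Atp6v1b1 lost the call without 2-day replicates 1 and 2 (adjusted p from 0.0633 to 0.286), Slc5a2, Umod, Slc12a1 and Slc12a3 without 14-day replicates 1 and 3 (adjusted p from 0.0536 to 0.128), and Slc12a1 in a fit that left out 1 library (2-day replicate 1, 14-day replicate 1 and 14-day replicate 2, adjusted p from 0.0591 to 0.095).

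Genes of respiration and of glycolysis were lower at 14 days. Of 42 oxidative phosphorylation genes 26 fell and none rose (median -0.81), and the tricarboxylic acid cycle had 15 falls and no rise among 22 genes (median -0.68). Atp5b, of the ATP synthase, had 37.6, 32.7 and 30.2 at 2 days and 18.8, 16.9 and 16.5 at 14 days (log2 fold change -0.94, SE 0.20, adjusted p = 0.0019). Cs, citrate synthase, had 4.44, 4.29 and 4.18 at 2 days and 2.34, 2.5 and 2.40 at 14 days (log2 fold change -0.83, SE 0.13, adjusted p = 0.000183), and Idh3a, of isocitrate dehydrogenase, 2.42, 2.40 and 2.37 at 2 days and 0.793, 0.878 and 0.956 at 14 days (log2 fold change -1.45, SE 0.17, adjusted p = 1.67e-05). The times were separate in these genes, with the 14-day libraries close to each other. Ndufs1 (-0.98) and Ndufs8 (-1.16) of complex I, Uqcrc1 (-0.89) and Cyc1 (-1.23) of complex III, the small ATP synthase subunits Atp5k (-1.5) and Atp5o (-0.98), and the cycle enzymes Ogdh (-0.82), Mdh2 (-1.02), Sdhc (-0.97) and Idh3b (-0.71) fell too, and Idh2 had -0.25 (adjusted p = 0.385). Of 21 glycolysis genes 11 fell and 2 rose (median -0.45). Pgam1, Pgk1, Eno1 and Ldha, enzymes of lower glycolysis and lactate formation, had -1.77, -1.5, -1.42 and -1.42, and the pyruvate kinase Pkm -0.86. Pfkfb3, which makes the activator of phosphofructokinase, rose with 0.313, 0.443 and 0.474 at 2 days and 1.12, 1.25 and 1.18 at 14 days (log2 fold change 1.54, SE 0.20, adjusted p = 4.55e-05), as did its relative Pfkfb4 (0.77), and hexokinase Hk2 had 0.172, 0.301 and 0.206 at 2 days and 0.238, 0.218 and 0.322 at 14 days (log2 fold change 0.21, SE 0.55, adjusted p = 0.801). For respiration, the cycle and glycolysis the falls without 2-day replicates 1 and 2 were 2, 3 and 7, and without 14-day replicates 1 and 3 19, 9 and 9. Atp5b, Ndufs1, Uqcrc1, Atp5k, Atp5o, Ogdh, Sdhc, Idh3b and Pfkfb4 lost the call without 2-day replicates 1 and 2 (adjusted p from 0.0603 to 0.208), Pfkfb4 without 14-day replicates 1 and 3 (adjusted p = 0.181), and Pfkfb4 in a fit that left out 1 library (2-day replicate 2 and 14-day replicate 1, adjusted p from 0.0514 to 0.0681).

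Fatty acid oxidation and ammonia genes did not move as a block. Of 31 genes of fatty acid oxidation 3 rose and 4 fell (median -0.32). Ppara, the transcription factor of the pathway, had 0.443, 0.213 and 0.509 at 2 days and 0.312, 0.541 and 0.783 at 14 days (log2 fold change 0.48, SE 0.44, adjusted p = 0.422), and Cpt1a, its gate to the mitochondrion, 0.20, neither called. The fatty acid hydroxylase genes Cyp4a14 and Cyp4a10 rose, Cyp4a14 with 0.410, 1.70 and 5.27 at 2 days and 16.4, 17.6 and 18.4 at 14 days (log2 fold change 3.49, SE 0.96, adjusted p = 0.0109) and Cyp4a10 by 1.89. Cyp4a14 differed widely among the 2-day libraries and little among the 14-day libraries. Ppargc1a, the coactivator of mitochondrial genes, rose by 0.71, and Crat fell by 0.68, Acads by 0.73, Cpt2 by 1.0 and Etfb by 1.04. Of 14 genes of gluconeogenesis and ammonia formation 2 rose, the glutamine transporter Slc38a3 with 0.0730, 0.0598 and 0.124 at 2 days and 1.17, 0.943 and 0.598 at 14 days (log2 fold change 3.34, SE 0.54, adjusted p = 0.000297) and Glud1 by 0.92, and 2 fell, Got2 by 0.74 and Prodh2 by 1.19. Pck1, which forms phosphoenolpyruvate in gluconeogenesis, had 26.2, 13.9 and 24.1 at 2 days and 51.3, 61.9 and 41.5 at 14 days (log2 fold change 1.30, SE 0.58, adjusted p = 0.0961), G6pc -0.95 and Fbp1 -0.75, none called. Of 28 antioxidant and conjugation genes 13 fell and none rose (median -0.80), among them Prdx1 (-1.25), Gstp1 (-1.5) and Gsta1 (-4.19), while catalase Cat (-0.36), the plasma peroxidase gene Gpx3 (-0.28) and the quinone reductase Nqo1 (-0.83) had no call. The falls were 3 without 2-day replicates 1 and 2 and 10 without 14-day replicates 1 and 3. Cyp4a14, Cyp4a10, Ppargc1a, Crat, Acads, Cpt2, Etfb, Glud1, Got2, Prodh2 and Prdx1 lost the call without 2-day replicates 1 and 2 (adjusted p from 0.0637 to 0.379), Cyp4a14, Cyp4a10, Ppargc1a, Crat, Acads, Cpt2, Glud1 and Got2 without 14-day replicates 1 and 3 (adjusted p from 0.0751 to 0.132), and Cyp4a14, Ppargc1a, Crat, Acads, Cpt2, Etfb, Glud1 and Prodh2 in a fit that left out 1 library (each of the 6 ended at least 1 of these calls, adjusted p from 0.0509 to 0.159).

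The 12 largest rises among called genes whose libraries did not overlap were Rnase1, a secreted ribonuclease (6.16), Apoh (5.54), Ctrb1 (5.53), Ahsg (5.24), Igfbp1 (5.24), Mmp7, Apoa1 (4.87), Hpd (4.87), Ndnf (4.79), Retnla (4.62), Sorcs1 (4.55) and Cyp2d9 (4.43). Igfbp1, an IGF binding protein (chromosome 11 of GRCm38 from 7197782 to 7202546), had 0.2, 0.0840 and 0.326 at 2 days and 6.28, 10.7 and 4.84 at 14 days (log2 fold change 5.24, SE 0.70, adjusted p = 6.85e-05). Ndnf, a secreted neurotrophic factor, had 0.00745, 0.00756 and 0.00825 at 2 days and 0.321, 0.464 and 0.284 at 14 days (log2 fold change 4.79, SE 0.46, adjusted p = 2.81e-06), and Retnla, a marker of alternatively activated macrophages in mice, 0, 0.00151 and 0.000589 at 2 days and 0.242, 0.0848 and 0.116 at 14 days (log2 fold change 4.62, SE 0.63, adjusted p = 8.31e-05). Rnase1 had 0.000745, 0.000756 and 0.00353 at 2 days and 0.300, 0.280 and 1.17 at 14 days (log2 fold change 6.16, SE 0.78, adjusted p = 4.16e-05), with replicate 3 the highest. That these genes were higher in all 14-day than in all 2-day libraries follows from how they were chosen. The tyrosine pathway enzyme gene Hpd had 0.0343, 0.0643 and 0.114 at 2 days and 2.89, 1.83 and 1.5 at 14 days (log2 fold change 4.87, SE 0.61, adjusted p = 4.08e-05) against a baseline mean of 3.79, so its 14-day levels lay nearer to baseline than its 2-day levels. The 12 largest falls were Ugt2b38 (-7.39), Pbk (-5.36), Car3 (-5.00), Hmmr (-4.99), Rrm2, Ube2c (-4.79), Birc5 (-4.78), Ccna2 (-4.75), Iqgap3 (-4.55), Ccnb1 (-4.54), Ncapg (-4.53) and Plk1 (-4.51), after 1 gene with a clone name was left out. All but Ugt2b38, a glucuronosyltransferase, and Car3, carbonic anhydrase 3, are genes of the cell cycle. Ugt2b38 had 5.89, 2.17 and 1.11 at 2 days and 0.00186, 0.00267 and 0.0529 at 14 days (log2 fold change -7.39, SE 1.24, adjusted p = 0.000413), and Car3 had 0.597, 2.07 and 2.81 at 2 days and 0.0649, 0.0176 and 0.0620 at 14 days (log2 fold change -5.00, SE 1.19, adjusted p = 0.00451). Members of families with near-identical copies (Ugt2b, Cyp2d, Cyp4a, Gsta, Saa, Serpina1, class I and II chains) are uncertain where reads could be split between copies. Ctrb1, Ahsg, Mmp7 and Apoa1 lost the call without 2-day replicates 1 and 2 (adjusted p from 0.0624 to 0.17) and Ctrb1 and Apoa1 without 14-day replicates 1 and 3 (adjusted p from 0.223 to 0.776).

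Transcripts of liver and exocrine pancreas stood high in single 14-day libraries. Lists of 16 liver and 12 pancreas genes were written after these values were seen. The liver list summed to 0.577 to 2.04 at 2 days and 2.15 to 20.3 at 14 days (baseline 1.65 to 2.20), with the values 20.3, 2.15 and 5.08 in 14-day replicates 1, 2 and 3, and 9 of 13 tested genes rose. Alb, albumin, had 0.163, 0.135 and 0.117 at 2 days and 7.85, 0.00907 and 2.36 at 14 days (log2 fold change 2.17, SE 1.48, adjusted p = 0.274), and Ahsg, the liver glycoprotein fetuin-A, 0, 0.000756 and 0 at 2 days and 1.67, 0.00534 and 0.444 at 14 days (log2 fold change 5.24, SE 1.13, adjusted p = 0.00254). Apoa1 followed with 0.00447, 0.00378 and 0.0141 at 2 days and 2.90, 0.0230 and 0.483 at 14 days and the hepcidin gene Hamp with 0, 0 and 0 at 2 days and 0.327, 0.00160 and 0.0681 at 14 days. All 4 genes were high in replicates 1 and 3. In replicate 2 Alb lay below every 2-day library and the other genes slightly above. Apoh, apolipoprotein H, did not follow this order, with 0.0305, 0.00681 and 0.00353 at 2 days and 1.71, 1.2 and 0.172 at 14 days. The pancreas list summed to 0.767 to 1.35 at 2 days and 0.107 to 44.3 at 14 days, the 14-day values being 1.92, 0.107 and 44.3, and 2 of 3 tested genes rose. Ctrb1, chymotrypsinogen B, had 0.00149, 0 and 0.000589 at 2 days and 0.195, 0.00160 and 13.5 at 14 days (log2 fold change 5.53, SE 1.65, adjusted p = 0.0174), and Cela2a, an elastase, had 0, 0 and 0 at 2 days and 0.103, 0 and 3.96 at 14 days. Apoh, Ctrb1, Ahsg and Apoa1 are thus among the largest rises while their levels were uneven between 14-day libraries, and the part of tissue from these organs in other rises was not tested beyond the counts without replicates 1 and 3. Rnase1, the largest rise, was also highest in replicate 3 (1.17), the library with the pancreas sum of 44.3. It was at 0.300 and 0.280 in 14-day replicates 1 and 2. Ahsg, Apoa1, Hamp, Ctrb1 and Cela2a lost the call without 2-day replicates 1 and 2 (adjusted p from 0.0624 to 0.183), Apoa1, Hamp, Ctrb1 and Cela2a without 14-day replicates 1 and 3 (adjusted p from 0.223 to 1), and Cela2a in a fit that left out 1 library (2-day replicate 2 and 14-day replicate 3, adjusted p from 0.0503 to 0.0508).

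**Figure D4:**
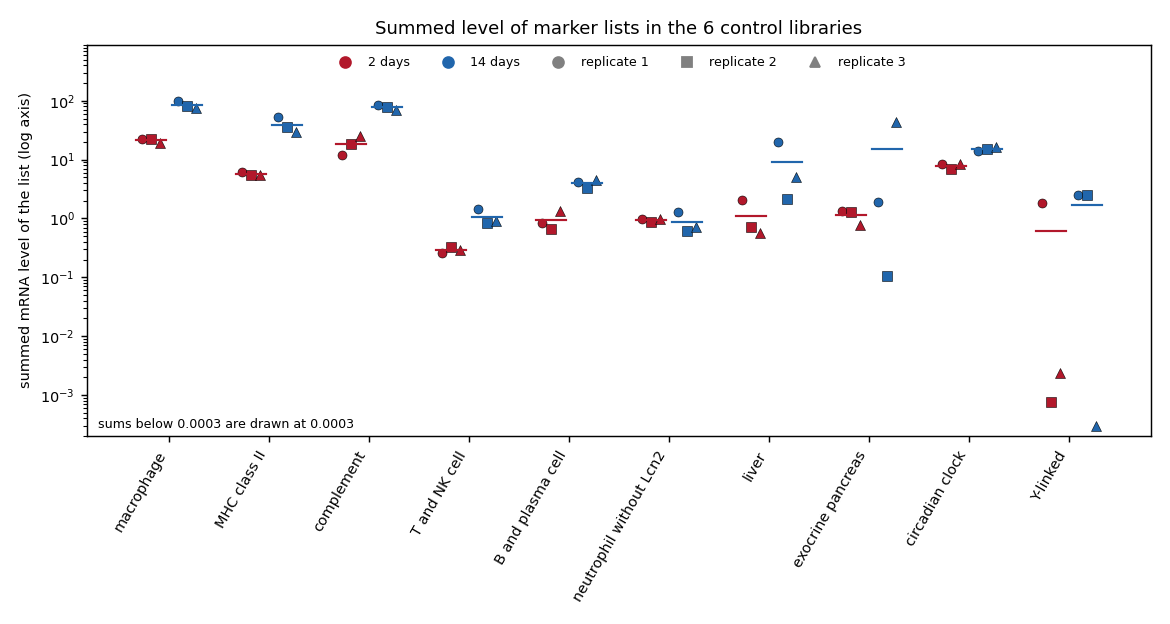
Summed mRNA level (log axis) of 10 marker lists in the 6 control libraries at 2 days (red) and 14 days (blue), with a marker shape for each replicate and a line at the mean of each time. Lcn2, also a gene of injured tubule, is left out of the neutrophil sum. Apoe, which other cells also make, is kept in the macrophage sum and gives much of it at 14 days. Macrophage, MHC class II, complement, lymphocyte and clock lists separate the times in every library, whereas liver, pancreas and Y-linked sums are uneven among the libraries of a time, such as 44.3 for pancreas in 14-day replicate 3.

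Clock genes also differed between the times. In a list of 15 clock genes, written after values were seen, 10 rose and none fell (median 1.02). Nr1d1, the repressor REV-ERB alpha, had 0.113, 0.122 and 0.218 at 2 days and 1.61, 1.99 and 1.85 at 14 days (log2 fold change 3.60, SE 0.30, adjusted p = 7.44e-07), and Dbp, a clock output factor, 0.258, 0.212 and 0.303 at 2 days and 1.43, 0.974 and 1.39 at 14 days (log2 fold change 2.27, SE 0.20, adjusted p = 1.24e-06). Cry2 rose by 1.39, while Arntl, which encodes BMAL1, had 0.131, 0.206 and 0.139 at 2 days and 0.143, 0.235 and 0.193 at 14 days (log2 fold change 0.25, SE 0.31, adjusted p = 0.562). At 14 days Nr1d1 was near its baseline mean of 1.60. The hour at which kidneys were taken is not given in the sources used here and its part was not tested.

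Other cell types and sex were read from further lists. Of 7 erythroid genes 2 fell, Epb42 by 1.95 and Slc4a1 by 2.41, the latter also of intercalated cells, and the globin genes Hba-a1 and Hbb-bs had -0.59 and -0.42 and Alas2 0.46 without a call. Of 11 adipocyte genes 0 passed by limma and edgeR, and 1 was higher by DESeq2 and at an unadjusted p below 0.05. The gene with the unadjusted p below 0.05 was Pck1 (1.30), given above among gluconeogenesis genes. Adipoq, adiponectin, had 0.0819, 0.602 and 0.720 at 2 days and 0.662, 0.0267 and 0.277 at 14 days, Plin1 0.0424, 0.260 and 0.320 at 2 days and 0.127, 0.000534 and 0.0675 at 14 days and Cidec 0.114, 0.758 and 0.981 at 2 days and 0.775, 0.0309 and 0.797 at 14 days, with the lowest values in 14-day replicate 2 and 2-day replicate 1. Of the muscle and adrenal list Acta1 fell by 1.58 from at most 0.0372 and Star had 0.58 (adjusted p = 0.057). Kap, an androgen-dependent protein of proximal tubule, had 107, 2.35 and 11.5 at 2 days and 79.8, 51.0 and 8.61 at 14 days (log2 fold change 1.2, SE 1.41, adjusted p = 0.541), and its highest levels at each time were in libraries with Y-linked expression. Its baseline mean was 117 (SD 85.0), although the baseline libraries had almost no Y-linked expression. Cyp4a12a had -0.82 and Slco1a1 0.97 without a call, and Odc1 and Slc22a28 fell by 2.63 and 3.27. Of genes higher in females, Slc7a12 had -1.73 without a call, Cyp4a14 and Adcy1 (1.32) rose and Slc22a29 fell by 3.60. The other Y-linked genes, Eif2s3y, Uty and Kdm5d, had 2.53, 2.17 and 2.14 without a call. With the mean Y-linked level as a covariate 2895 genes rose and 2894 fell, and 5175 of the calls were shared with the fit without it. Slc4a1, Acta1, Slc22a28, Cyp4a14, Adcy1 and Slc22a29 lost the call without 2-day replicates 1 and 2 (adjusted p from 0.0571 to 0.68), Acta1, Slc22a28 and Cyp4a14 without 14-day replicates 1 and 3 (adjusted p from 0.0563 to 0.306), and Acta1, Slc22a28 and Cyp4a14 in a fit that left out 1 library (2-day replicate 1, 2-day replicate 2, 14-day replicate 2 and 14-day replicate 3, adjusted p from 0.0526 to 0.178).

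The change from 2 to 14 days was set beside that in the IKKβ∆Tub strain, in which it was taken from 3 libraries of each time. By the interaction test 10 genes of 16342 (0.0612%) passed and 1608 had an unadjusted p below 0.05, so for most genes no difference of the change between strains was called. The medians of the lists were -4.32 for mitosis, -2.15 for replication and -1.14 for collagens in IKKβ∆Tub, beside -4.00, -2.33 and -0.70 in control. They were -0.80 and 1.31 for macrophage genes, -2.69 and -0.31 for neutrophil genes, 0.44 and 1.57 for MHC class II, 0.00 and 0.88 for complement, and 0.26 and -0.95 for the thick ascending limb and distal convoluted tubule, in the same order of strains. These list differences were not tested. Mmp9 had the lowest adjusted p of the interaction, with -0.15 in control and -3.69 in IKKβ∆Tub (difference 3.54, adjusted p = 0.000617). F10, coagulation factor X, rose in control (1.83) and had -1.35 in IKKβ∆Tub (difference 3.18, adjusted p = 0.00395). The monocyte chemokine gene Ccl7 had -0.15 and -3.33 (difference 3.18, adjusted p = 0.0208). Here a difference is the change in control minus that in IKKβ∆Tub. The 2-day libraries of doubtful genotype and the 14-day libraries with liver and pancreas transcripts enter all these differences. Sex enters them too: the median change of the Y-linked list was 2.33 in control and -5.17 in IKKβ∆Tub. With the Y-linked level as a covariate in limma, Mmp9 passed the interaction test (adjusted p = 0.0222). F10 (adjusted p = 0.146) and Ccl7 (adjusted p = 0.188) did not. The part of sex in the list medians was not tested.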

How the data were processed

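RNA of frozen kidney tissue was sequenced from stranded, poly(A)-selected libraries. Per the study's methods and the submitters' processing notes, reads were checked with FastQC 0.11, trimmed with Trim Galore 0.4, aligned to GRCm38 with STAR 2.5.2b and counted per gene with featureCounts 1.5.2. StringTie 1.3.3b, MultiQC 1.4, R 3.6.3 and DESeq2 1.26.0 are named too. The deposited values are a signal in which the authors divided each gene's reads by the 90th percentile of the library, and multiplying by it returned whole reads for 100% of values within 0.001 read. Gene starts in the table differ from GRCm38, so positions were looked up by Ensembl identifier in GENCODE annotation of GRCm38, and promoter sequences came from RefSeq on GRCm38.p6.

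The contrast was fitted with limma 3.58.1 in R 4.3.3 on log2(value + 0.005) for genes at 0.005 or more in at least 3 of 18 libraries, with 6 groups sharing the spread between samples. The pseudocount understates changes of low genes. The p-values were adjusted by Benjamini and Hochberg over all tested genes, with a threshold of 0.05, and no column was left without a sample. In simulated data the fit was tested before use. The alternatives were pseudocounts of 0.05 and 0.001, no filter or a filter at 0.05, median-of-ratios scaling, fits on 6 or 12 libraries, edgeR 4.0.16 and DESeq2 1.42.0 on the recovered counts, an unadjusted threshold with a 1.5-fold change, a replicate block, the Y-linked level as a covariate, and libraries left out.

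Named genes were the 12 largest called changes in each direction without overlap and with a mean of at least 0.05 in the higher group (clone names, Y-linked genes and Xist left out), the leading 3 genes of each list, up to 4 further called members by lowest p, and label checks. Some of these genes are counted in the lists but are not reported here. Members that complete a count of 5 or fewer, the genes of the strain comparison, and the liver, pancreas and clock lists with their genes were chosen after values were seen. The groups, lists and tests were chosen with earlier results of these data known. Depth was 13053850 to 21703468 reads per library, so that 1 read was worth 0.000534 to 0.000928 in level, and differences under a few reads were not detectable.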

Additional observations from a re-analysis of the deposited data

Results flagged for a closer look

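The change from 2 to 14 days differed between control and IKKβ∆Tub kidneys by the interaction test for 10 genes, with differences in log2 change (control minus IKKβ∆Tub) of 3.54 for Mmp9, 3.18 for F10, 2.0 for Il1f9, 2.59 for F7, 3.18 for Ccl7, 1.64 for Pira2, 1.80 for Gm5150, 1.45 for Mmp25, 2.01 for Acod1 and -2.98 for Vmn1r32. Mmp9, a gelatinase of neutrophils and macrophages, was at 0.103, 0.110 and 0.108 in control at 2 days and at 0.108, 0.0939 and 0.0882 at 14 days, while in IKKβ∆Tub it was at 0.246 to 0.342 and at 0.0132 to 0.0206. F10 and F7, coagulation factors X and VII, rose in control, and in IKKβ∆Tub F10 was at 0.0215 to 0.0275 at 2 days and 0.00293 to 0.00944 at 14 days. In control F10 was at 0.104, 0.0491 and 0.0559 at 14 days, highest in replicate 1, the library with the highest liver sum. Without 14-day replicates 1 and 3 the differences were 2.79 for F10 and 2.53 for F7. The part of liver tissue in them was not tested. Acod1, the itaconate-forming enzyme of activated macrophages, rose in control from at most 0.00118 to 0.00374 to 0.0140 and was at 0.00512 to 0.00625 and 0 to 0.00266 in IKKβ∆Tub. Ccl7 did not separate the times in control and was at 0.0609 to 0.111 and 0 to 0.00558 in IKKβ∆Tub. Most of these genes had few reads, and the uneven sex of the libraries enters these differences too. Without 2-day control replicates 1 and 2, Mmp9 (3.53, adjusted p = 0.0264) and Il1f9 (2.0, adjusted p = 0.0298) of these 10 still passed by limma. Mmp9 passed in all alternatives that could be fitted, whereas Il1f9 did not with a pseudocount of 0.05 (adjusted p = 0.0551), in the 12 libraries after injury (adjusted p = 0.0885), by edgeR (adjusted p = 0.264), with the Y-linked covariate (adjusted p = 0.165) or without 14-day replicates 1 and 3 (adjusted p = 0.112). Vmn1r32, on which the doubt about those libraries rests, had -1.75 (adjusted p = 0.137) without them.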

How the results depend on the processing

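Limits first: each time had 3 libraries, time and animal series cannot be told apart, sex was uneven, and 2-day replicates 1 and 2 and 14-day replicates 1 and 3 carry the doubts given above. The counts of 2705 higher and 2899 lower genes stayed within 1.5 times, at 2165 to 3011 and 2662 to 3230, under the other thresholds, filters, scalings, tools, sets of libraries and covariates listed under processing, but not without 2-day replicates 1 and 2 (713 and 1144), and they were 1251 and 1833 without 14-day replicates 1 and 3, a fit added after seeing the data. Fewer samples entered these fits. Leaving out 1 library each gave 1990 to 2486 higher and 2116 to 2934 lower genes. The replicate block gave 2549 and 2738. Replicate numbers did not pair the samples: deviations from the group means of same-numbered libraries correlated at 0.0216, -0.24 and 0.23. Calls shared with the main result had the same direction in every alternative.

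The 10 genes of the interaction test became 18 and 5 with pseudocounts of 0.05 and 0.001, 2 with a filter at 0.05, 5 after rescaling, 1 in 12 libraries, 2 by edgeR, 100 by DESeq2, 1483 at an unadjusted p with 1.5-fold, 6 with the replicate block, 1 with the Y-linked covariate, 3 without the doubtful 2-day libraries, 2 without 14-day replicates 1 and 3, and 3 to 34 with 1 library left out. With the 6 control libraries alone it could not be fitted. The cause was not tested.

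Directions (log2 change) turned for uncalled values, none of which passed in the turned direction except Alb. With the Y-linked covariate, Cdkn1a was -0.23, Nphs1 0.074, Ddx3y -0.058, Eif2s3y -0.0072, Xist 0.46, Slco1a1 -1.54, Adipoq 0.033 and Cidec 0.37. Rescaling gave -0.011 for Egr1 and -0.017 for Podxl, and edgeR and DESeq2 gave -1.45 and -1.46 for Slco1a1. Without the doubtful 2-day libraries, Lcn2 was -0.030, Vcam1 -0.061, Fn1 -0.064, Alas2 -0.18, Ikbkb -0.16, the growth arrest median 0.040 and the collecting duct median 0.13. Without 14-day replicates 1 and 3, Egr1 was -0.57, Xcr1 -0.28, Cfb 0.080, Col4a1 0.090, Kdr -0.15, Podxl -0.072, Hk2 -0.017, Alb -3.34 (adjusted p = 0.00288, against 0.274 with all libraries), the growth arrest median 0.042 and the immediate early median -0.031. With 1 library left out, ranges were -0.029 to 0.22 for Cdkn1a, -0.46 to 0.0039 for Fos, -0.23 to 0.30 for Egr1, -0.11 to 0.41 for Xcr1, -0.26 to 0.13 for Col4a1, -0.040 to 0.59 for Fn1, -0.18 to 0.27 for Kdr, -0.29 to 0.031 for Nphs1, -0.17 to 0.14 for Podxl, -1.50 to 0.058 for Cyp4a12a, -0.10 to 2.65 for Kap, -0.30 to 3.38 for Slco1a1, -0.054 to 0.77 for Alas2, -1.87 to 0.36 for Adipoq, -1.62 to 0.82 for Cidec, -0.49 to 0.088 for Ccl7 and -0.18 to 0.00097 for the growth arrest median.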
